A study of Mus musculus with 36 samples.

Results

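A set of 8 RNA-binding proteins that set neuronal splicing patterns is described here, chosen by name: the 3 polypyrimidine tract binding proteins (Ptbp1, Ptbp2 and Ptbp3), Srrm4, 2 RBFOX proteins (Rbfox1 and Rbfox2) and both NOVA proteins (Nova1 and Nova2). These are 8 of 51734 gene symbols in the count table, and all 8 were among the 20511 genes tested. The 8 genes and the gene lists below were chosen with earlier results of these data known. Their counts and medians beside those of all genes are therefore descriptive. Libraries were made from E14, a line of mouse embryonic stem cells (ESC), and from its derivatives labelled neural precursor cells (NPC), in a study of the histone methyltransferases MLL2, MLL3 and MLL4. The 3 genotypes were measured at both stages, with 3 libraries in each of 6 groups: wild type (WT), MLL3/4 dCD, in which MLL3 and MLL4 lack catalytic activity, and MLL2 dTAG, in which MLL2 carries a tag that the compound dTAG-13 uses to direct a protein to degradation. The labels list dTAG-13 for every one of the 18 libraries, WT and ESC included, and retinoic acid for the 9 NPC libraries. The protocol gives 2 µM dTAG-13 from day 1 of differentiation and harvest on day 4, and no duration for ESC. Each genotype is a line of its own, the number of clones is not stated, and MLL2 protein is not measured in these files, so the edit and the line cannot be told apart.

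Splicing changes with neural fate partly because its regulators change. PTBP1 is the form found in most non-neural cells, where it blocks many neuronal exons, among them an exon of Ptbp2, whose skipping leads the Ptbp2 transcript to decay. When PTBP1 falls, PTBP2 accumulates and holds an intermediate programme until neurons mature. SRRM4 promotes the inclusion of very short neuronal exons, and RBFOX and NOVA proteins promote or block exons according to where they bind around them. The count table has a single value per gene, so transcript levels are described and exon inclusion was not measured.

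Library totals were 19.4 to 46.0 M counts, and replicate 1 of ESC WT was the shallowest. Replicate 2 of ESC WT stood apart most from its group: chi-square per degree of freedom was 10.5 and 8.38 against the other ESC WT libraries and 2.19 to 4.43 over the other 16 replicate pairs. Transcript of Kmt2b (MLL2), Kmt2c (MLL3) and Kmt2d (MLL4) was present in all groups, at 151 to 334 CPM (counts relative to the scaled library total, in the usual unit), which checks neither a catalytic change nor a protein degraded after translation. Kmt2c was higher in MLL2 dTAG than in WT, at 275 to 286 CPM against 177 to 219 in ESC and 299 to 334 against 171 to 178 in NPC. The summed level of 5 pluripotency markers (Pou5f1, Nanog, Zfp42, Esrrb and Sox2) was 2080 to 2555 CPM over the ESC libraries and 22.0 to 24.0 in NPC WT, 35.0 to 39.1 in NPC MLL3/4 dCD and 89.0 to 92.7 in NPC MLL2 dTAG. All 5 were higher than WT in NPC MLL2 dTAG, where 33.3% of all genes were higher. In NPC MLL3/4 dCD, where 26.7% were higher, only Sox2 was called (28.3 CPM against 14.4 in WT). The 5 neural progenitor markers, Sox2 again among them, summed to 365 to 389 CPM in ESC WT and 148 to 150 in NPC WT. Sox2 fell from 311 to 14.4 CPM between these stages, Sox1 was at 3.04 and 3.10, and 3 rose, Pax6 from 1.75 to 38.9. The sum of 9 neuronal markers was 387 to 462 CPM in ESC WT and 290 to 296 in NPC WT. Of the 9, 7 rose and 2 fell, where 39.1% and 40.4% of all genes did. Stmn2 went from 326 to 25.6 CPM, and Dcx from 4 counts to 8524. The labels do not say whether replicates were separate cultures, so tests measure the spread between these libraries.

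Levels are given below as CPM for replicates 1, 2 and 3, in that order. Changes are log2 fold changes from edgeR's quasi-likelihood test on all 18 libraries, and a gene is called at a Benjamini-Hochberg adjusted p under 0.05. The standard error (SE) was derived from that test, as the absolute change over the square root of its F value. It is therefore approximate. In bulk RNA, fewer cells with a transcript and less transcript per cell cannot be told apart.

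**Figure D1:**
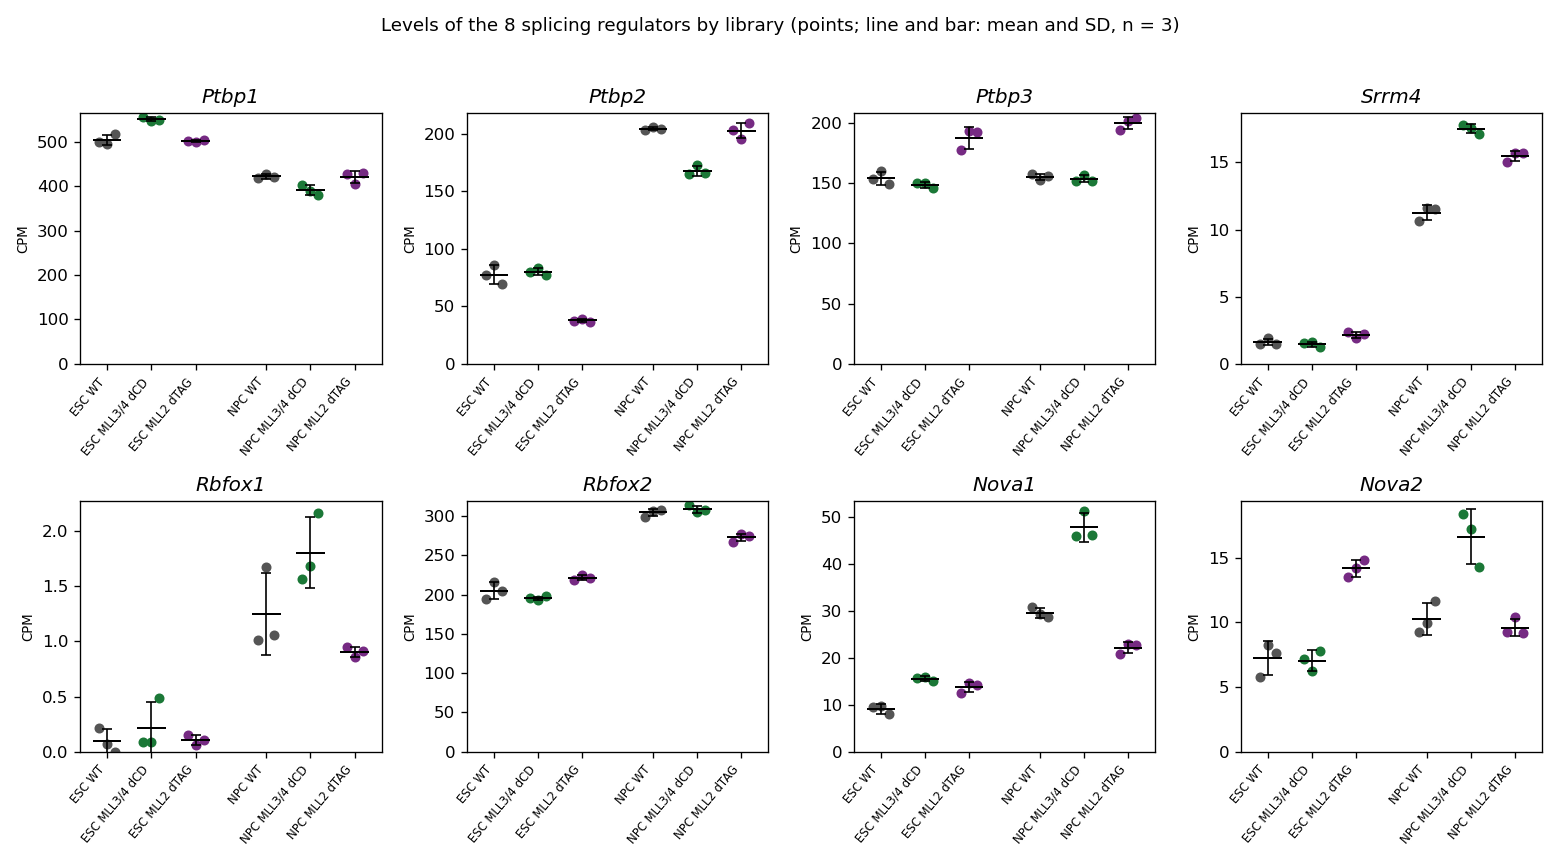
Level of each gene in each library (points, CPM, linear axes from 0), with the mean and SD of 3 libraries per group. Ptbp2 was at 36.7 to 39.2 CPM in ESC MLL2 dTAG and above 69 CPM in every other group, and Srrm4 stayed under 2.5 CPM in all ESC libraries and above 10 CPM in all NPC libraries.

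From ESC to NPC in WT, 6 of the 8 genes rose and Ptbp1 fell, and this difference was called for 79.5% of all genes tested, 39.1% higher and 40.4% lower. The median change of the 8 genes was 0.98 against -0.037 for all genes tested. In MLL3/4 dCD the counts were the same, 6 higher and 1 lower (77.6% of all genes called, 38.7% higher and 39.0% lower), and in MLL2 dTAG 6 were higher and 2 lower (78.2% called, 39.9% higher and 38.3% lower). Per kilobase of exon, the order in ESC WT was Ptbp1 (106 CPM per kb), Rbfox2 (25.2), Ptbp3 (20.6), Ptbp2 (8.46), Nova1 (1.04), Nova2 (0.862), Srrm4 (0.187) and Rbfox1 (0.0211). In NPC WT the per-kb order was Ptbp1 (89.0), Rbfox2 (37.4), Ptbp2 (22.3), Ptbp3 (20.8), Nova1 (3.39), Srrm4 (1.30), Nova2 (1.23) and Rbfox1 (0.284). Ptbp2 thus passed Ptbp3, and Srrm4 and Nova2 lay close in NPC WT, apart by less than the SD of Nova2 (0.148) but not that of Srrm4 (0.0628). Lengths are those of all annotated exons merged, which may exceed the transcripts used in these cells.

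Ptbp1 (chr10:79854427-79864771, plus strand, GRCm38) encodes the general splicing repressor of the family. It was at 500, 494 and 517 CPM in ESC WT and at 418, 428 and 420 in NPC WT. The stages did not overlap, and the fall was small, -0.26 on the log2 scale (SE 0.031, edgeR adjusted p = 2.6e-09, and -0.15 without a filter on low counts). ESC MLL3/4 dCD had 556, 547 and 550 CPM, above every ESC WT library (0.13, SE 0.031). NPC MLL3/4 dCD had 402, 390 and 380 CPM, below every NPC WT library (-0.11, SE 0.031). The gene was therefore highest of the 6 groups in ESC MLL3/4 dCD and lowest in NPC MLL3/4 dCD, and its fall with differentiation was -0.50 (SE 0.031) in that line. MLL2 dTAG libraries lay within or beside WT at both stages, at 502, 500 and 503 CPM in ESC and 427, 405 and 430 in NPC, with changes of -0.0060 and -0.0054 that were not called. Upper quartile scaling and library totals alone made the NPC value a called fall (-0.096 and -0.087). Exons of Ptbp1 overlap those of 3 genes on the opposite strand (E130317F20Rik, Plppr3 and Gm17134) over 6.22%, 5.30% and 9.22% of their length. Gm17134 had no count in any library, and Plppr3 was at 84.5, 93.6 and 86.1 CPM in NPC WT. The strand setting of the counting is not given in the sources used here, and the part of such reads in Ptbp1 was not tested.

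Ptbp2 (chr3:119718742-119784466, minus strand), the neural paralog, had the largest genotype difference of the family. In ESC WT it was at 76.9, 86.1 and 69.8 CPM, in ESC MLL3/4 dCD at 79.9, 83.3 and 77.4, and in ESC MLL2 dTAG at 37.4, 39.2 and 36.7. All MLL2 dTAG libraries lay far below all others, and the change against WT was -1.04 (SE 0.053, edgeR adjusted p = 2.0e-18). In NPC the same line was at 203, 196 and 209 CPM, around the 203, 205 and 204 of WT, and the change of -0.012 (SE 0.045) was not called; with offsets for GC content and length it became a called rise of 0.24 (adjusted p = 8.1e-06 by edgeR). NPC MLL3/4 dCD was lower than every other NPC library, at 165, 173 and 166 CPM (-0.28, SE 0.045). Ptbp2 rose from ESC to NPC by 1.40 (SE 0.048) in WT, 1.07 (SE 0.048) in MLL3/4 dCD and 2.42 (SE 0.051) in MLL2 dTAG. The value in MLL3/4 dCD was 0.62 with the GC and length offsets.

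Ptbp3 (chr4:59471868-59549364, minus strand), the third paralog, known from blood cells, had the smallest difference between stages of the 8 genes in each line by the test used here, an order that offsets for GC content and length did not keep. It was at 153, 160 and 149 CPM in ESC WT and 158, 153 and 156 in NPC WT, which overlap (0.012, SE 0.038, not called). Offsets for GC content and length turned this into a called fall of -0.47, so the direction between stages rests on the scaling: library totals alone and no filter on low counts gave called rises of 0.096 and 0.12 in WT and 0.13 and 0.15 in MLL3/4 dCD. In MLL2 dTAG the rise of 0.091 (SE 0.037) was called, and the call was lost with a stricter filter (0.077) and without replicate 1 of the ESC or replicate 2 or 3 of the NPC libraries (0.053 to 0.087), and turned with upper quartile scaling (-0.030) and the offsets (-0.36). MLL2 dTAG was higher than WT at both stages: 177, 194 and 192 CPM in ESC (0.29, SE 0.038) and 194, 201 and 204 in NPC (0.36, SE 0.037). With the GC and length offsets these rises were 0.45 and 0.55. MLL3/4 dCD had 150, 150 and 146 CPM in ESC and 152, 157 and 152 in NPC and was not called against WT at either stage, although the fall in ESC (-0.052) became a called -0.17 with those offsets.

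**Figure D2:**
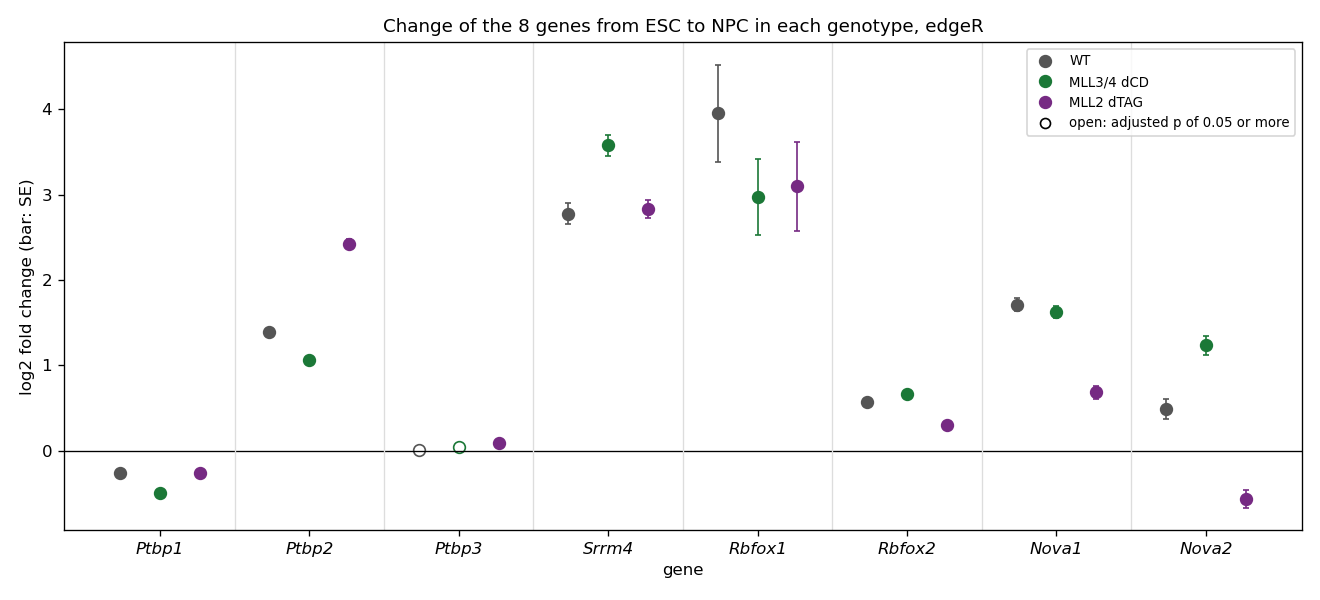
Log2 fold change from ESC to NPC of each gene (points, with SE bars) in WT, MLL3/4 dCD and MLL2 dTAG, with called changes filled. Ptbp2 rose most in MLL2 dTAG (2.42), Srrm4 most in MLL3/4 dCD (3.58), and Nova2 rose in WT (0.49) and MLL3/4 dCD (1.23) and fell in MLL2 dTAG (-0.56).

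The balance within the PTB family was followed as a ratio of counts per base of exon in each library, which no library scaling can alter. It is not corrected for GC content, which is 53.7% in Ptbp1, 34.2% in Ptbp2 and 38.9% in Ptbp3 (longest transcript). This ratio and the shares below were not computed with the GC and length offsets, under which Ptbp2 in NPC MLL2 dTAG was above WT by 0.24. The Ptbp2 to Ptbp1 ratio was 0.0795, 0.0900 and 0.0697 in ESC WT and 0.251, 0.248 and 0.251 in NPC WT. It was 0.0384, 0.0405 and 0.0377 in ESC MLL2 dTAG, below every other library, and 0.246, 0.2499 and 0.251 in NPC MLL2 dTAG, 1 library below the WT range and 2 within it. ESC MLL3/4 dCD (0.0742, 0.0787 and 0.0727) overlapped ESC WT, and NPC MLL3/4 dCD (0.211, 0.229 and 0.225) lay below NPC WT. On the log2 scale the ratio in ESC MLL2 dTAG differed from WT by -1.03, and NPC WT from ESC WT by 1.66. In two-sided exact permutation tests 7 of the 9 comparisons of 2 groups reached p = 0.1, the smallest that 3 against 3 allows, or 0.129 adjusted over the 9, so none could pass 0.05.

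Ptbp1 supplied 78.5% ± 1.31 of the family's counts per base in ESC WT and 67.4% ± 0.384 in NPC WT (SD, n = 3). The share of Ptbp2 went from 6.25% ± 0.690 to 16.9% ± 0.0483, and that of Ptbp3 was 15.2% ± 0.616 and 15.7% ± 0.359. In ESC MLL2 dTAG the share of Ptbp2 was 3.05% ± 0.103 and that of Ptbp3 18.6% ± 0.756, so the family there leaned further to Ptbp3 while Ptbp1 kept 78.4% ± 0.778. The Ptbp3 to Ptbp1 ratio was highest in NPC MLL2 dTAG, at 0.302 ± 0.0139, against 0.233 ± 0.00664 in NPC WT, and no pair of groups compared overlapped in this ratio (exact permutation p = 0.1 for all 9 comparisons, the smallest possible, and 0.1 adjusted).

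**Figure D3:**
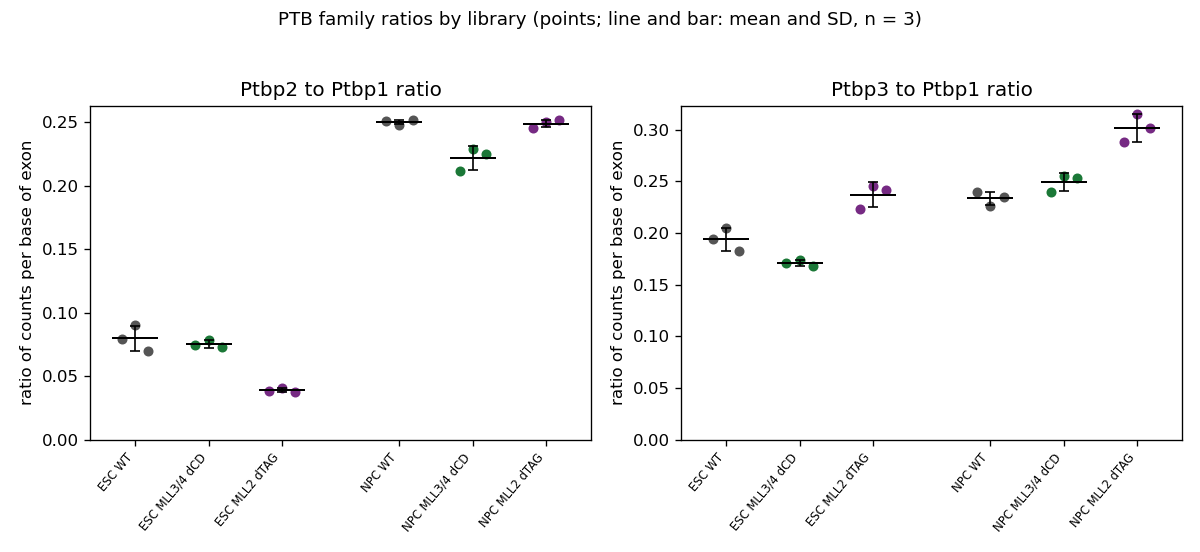
Ratio of counts per base of exon of Ptbp2 (left) and Ptbp3 (right) to Ptbp1 in each library (points), with mean and SD of 3 libraries, on axes from 0. The Ptbp2 ratio in ESC MLL2 dTAG (0.0389 ± 0.00147) was below that of ESC WT (0.0797 ± 0.0101), and in NPC both were near 0.25.

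Srrm4 (chr5:116439275-116591817, minus strand) encodes the activator of neuronal microexons, which the repressor REST keeps low outside the nervous system. In ESC its level was low, at 1.49, 1.89 and 1.49 CPM in WT (129 counts in all) and 1.54, 1.61 and 1.27 in MLL3/4 dCD (109 counts). NPC WT had 10.6, 11.6 and 11.5 CPM, a rise of 2.77 (SE 0.12, edgeR adjusted p = 3.6e-21). Both mutant lines were above every WT library as NPC: 17.8, 17.6 and 17.2 CPM in MLL3/4 dCD (0.64, SE 0.083) and 15.0, 15.7 and 15.7 in MLL2 dTAG (0.46, SE 0.083). In NPC the libraries of MLL2 dTAG also lay below those of MLL3/4 dCD without overlap, by -0.18 (SE 0.080, edgeR adjusted p = 0.057), which was not called here and was called in 8 of the other settings tried. ESC MLL2 dTAG had 2.38, 1.95 and 2.19 CPM (212 counts), a called rise of 0.40 (SE 0.16, edgeR adjusted p = 0.032). That call was lost with upper quartile scaling, without a filter on low counts, with limma-voom, with halved counts, in a fit of the 2 groups alone, and without replicate 1 or 3 of either group, where values were 0.33 to 0.45. The antisense gene Srrm4os overlaps 0.78% of the exons of Srrm4.

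The Rbfox genes encode splicing factors that recognise the same short RNA word, and Rbfox2 is the widely expressed one while Rbfox1 is mostly found in neurons and muscle. Rbfox1 (chr16:5885355-7411526, plus strand) had 6, 17 and 10 counts in all in ESC WT, MLL3/4 dCD and MLL2 dTAG. In NPC it had 133 counts in WT (1.01, 1.68 and 1.06 CPM), 186 in MLL3/4 dCD (1.56, 1.68 and 2.17) and 106 in MLL2 dTAG (0.949, 0.861 and 0.913). It rose with differentiation in each line, by 3.95 (SE 0.57) in WT, 2.97 (SE 0.45) in MLL3/4 dCD and 3.10 (SE 0.52) in MLL2 dTAG. Because ESC counts are so few, the size of these rises is imprecise. No genotype difference against WT was called, and without replicate 1 of ESC WT the value for MLL3/4 dCD in ESC went from 1.501 (SE 0.79) to a called 2.63. Between the mutant lines in NPC, MLL2 dTAG was lower than MLL3/4 dCD by -0.99 (SE 0.34, edgeR adjusted p = 0.012), and the call was lost without replicate 3 of NPC MLL3/4 dCD (-0.84, adjusted p = 0.072 by edgeR).

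Rbfox2 (chr15:77078990-77307004, minus strand) was the second most abundant member per length in both stages of WT. It was at 195, 216 and 205 CPM in ESC WT and 299, 307 and 308 in NPC WT (0.57, SE 0.034, or 0.20 with the GC and length offsets). MLL2 dTAG narrowed that distance from both ends. Its ESC libraries, at 219, 225 and 221 CPM, were above ESC WT (0.11, SE 0.034), a call lost with upper quartile scaling, in the fit of the 2 groups alone and without replicate 1 of ESC WT (0.056 to 0.10), and 0.17 without a filter on low counts or with the offsets. Its NPC libraries, at 267, 277 and 275 CPM, were below every NPC WT library (-0.16, SE 0.033, and -0.24 to -0.25 under library totals and upper quartile scaling). The rise from ESC to NPC in MLL2 dTAG was 0.30 (SE 0.034), 0.18 with upper quartile scaling, and a called fall of -0.12 with the offsets. MLL3/4 dCD had 195, 193 and 198 CPM in ESC and 313, 305 and 307 in NPC and was not called at either stage, although the ESC value of -0.073 became called with the offsets (-0.090) and without replicate 1 of ESC WT (-0.11).

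Nova1 (chr12:46694517-46818929, minus strand) and Nova2 (chr7:18925888-18965319, plus strand) encode neuron-restricted splicing factors. Nova1 was at 9.47, 9.81 and 7.91 CPM in ESC WT, 15.8, 15.9 and 15.0 in ESC MLL3/4 dCD and 12.6, 14.6 and 14.2 in ESC MLL2 dTAG. Both mutant lines were above WT in ESC without overlap, by 0.78 (SE 0.088) and 0.61 (SE 0.087). In NPC the lines parted: WT had 30.8, 29.3 and 28.8 CPM, MLL3/4 dCD 46.0, 51.4 and 46.1 (0.69, SE 0.064) and MLL2 dTAG 20.9, 23.0 and 22.6 (-0.41, SE 0.067, or -0.22 with the offsets). The 6 groups formed a strict order with no overlap between neighbours, from NPC MLL3/4 dCD down to ESC WT. The rise from ESC to NPC was 1.71 (SE 0.080) in WT, 1.62 (SE 0.071) in MLL3/4 dCD and 0.68 (SE 0.073) in MLL2 dTAG, the last 0.16 with the offsets.

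Nova2 was at 5.75, 8.25 and 7.64 CPM in ESC WT and 7.17, 6.21 and 7.75 in ESC MLL3/4 dCD, which overlap. ESC MLL2 dTAG stood above them at 13.5, 14.2 and 14.8 CPM (0.95, SE 0.11, edgeR adjusted p = 7.2e-09). In NPC it was MLL3/4 dCD that stood above WT, at 18.4, 17.2 and 14.2 CPM against 9.27, 9.93 and 11.7 (0.69, SE 0.10). NPC MLL2 dTAG (9.22, 10.4 and 9.18 CPM) overlapped WT. From ESC to NPC the gene therefore rose in WT (0.49, SE 0.12) and MLL3/4 dCD (1.23, SE 0.11) and fell in MLL2 dTAG (-0.56, SE 0.10). With the GC and length offsets these values were 0.092, not called, then 0.74 and -0.90. The long noncoding gene Gm26821 overlaps 31.68% of the exons of Nova2 on the other strand and had no count in any library.

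The bases before the start sites of Srrm4, Nova2 and Rbfox1 are shown with their CG dinucleotides. MLL2 is known to bind CG through a domain of its own where it carries no methylation. The windows of Ptbp1, Ptbp2 and Nova1 overlap annotated exons and are not shown. For Rbfox1, the member with the fewest CG among those with a window, the first window is given. Sequences are the 250 bases before the RefSeq start (GRCm38.p6), 5′ to 3′ on the gene's strand, with each CG in capitals.
Srrm4, chr5:116591818-116592067, minus strand: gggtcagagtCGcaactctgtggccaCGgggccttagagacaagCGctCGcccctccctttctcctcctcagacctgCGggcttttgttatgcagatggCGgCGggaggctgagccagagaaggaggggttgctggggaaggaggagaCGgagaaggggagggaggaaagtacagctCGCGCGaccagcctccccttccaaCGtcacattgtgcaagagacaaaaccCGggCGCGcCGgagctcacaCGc
Nova2, chr7:18925638-18925887, plus strand: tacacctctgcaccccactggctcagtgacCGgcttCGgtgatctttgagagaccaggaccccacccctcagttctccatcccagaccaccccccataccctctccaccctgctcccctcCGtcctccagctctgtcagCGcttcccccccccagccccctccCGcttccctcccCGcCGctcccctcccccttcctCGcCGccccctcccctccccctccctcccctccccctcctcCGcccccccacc
Rbfox1, chr16:5884543-5884792, plus strand: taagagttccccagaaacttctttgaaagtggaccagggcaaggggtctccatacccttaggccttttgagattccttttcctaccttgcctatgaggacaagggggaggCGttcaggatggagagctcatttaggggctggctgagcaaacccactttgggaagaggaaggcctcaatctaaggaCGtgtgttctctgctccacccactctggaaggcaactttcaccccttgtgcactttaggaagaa

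Srrm4 has 17 CG in this window and Nova2 has 10, and 23.5% and 37.8% of the 32851 RefSeq windows of this length have as many or more. The Rbfox1 window has 2 (81.2% have as many or more) and a second Rbfox1 start has 6. Of the other members with a window, Ptbp2 has 23 CG (13.3% have as many or more), Ptbp1 17 and Nova1 11. The palindrome CG reads the same on both strands, and the counts are a description of these letters: methylation and binding are not in these files. Of the 8 genes, 6 matched the table, and Ptbp3 and Rbfox2 did not.

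Across genotypes in ESC, MLL3/4 dCD against WT called 2 of the 8 genes, both higher (Ptbp1 and Nova1), where 48.3% of all genes tested were called, 25.7% higher and 22.6% lower. MLL2 dTAG against WT in ESC called 6 of the 8, 5 higher (Ptbp3, Srrm4, Rbfox2, Nova1 and Nova2) and Ptbp2 lower, where 56.9% of all genes were called, 28.7% higher and 28.2% lower. The median change of the 8 was -0.0033 in MLL3/4 dCD and 0.34 in MLL2 dTAG, against 0.023 and -0.0011 for all genes. In NPC, MLL3/4 dCD against WT called 5 of the 8, with Srrm4, Nova1 and Nova2 higher and Ptbp1 and Ptbp2 lower (53.5% of all genes called, 26.7% higher and 26.8% lower), and a median of 0.27 against -0.017. MLL2 dTAG against WT in NPC called 4, with Ptbp3 and Srrm4 higher and Rbfox2 and Nova1 lower (61.7% of all genes called, 33.3% higher and 28.4% lower), and a median of -0.056 against 0.028. A share of 2, 5 or 4 of 8 is near or below these backgrounds. Both lines were compared with the same WT libraries. For MLL3/4 dCD in ESC the number called was 4 with the GC and length offsets or without replicate 1 of ESC WT, and 3 without replicate 2, where Ptbp2 was also called (0.14). For MLL2 dTAG in ESC the number called was 4 to 6 when each library was left out in turn.

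Whether a genotype's change against WT differed between the stages was tested as an interaction. In MLL3/4 dCD 4 of the 8 genes were called (Ptbp1, Ptbp2, Srrm4 and Nova2), where 42.9% of all genes were. In MLL2 dTAG also 4 were called (Ptbp2, Rbfox2, Nova1 and Nova2), where 49.0% of all genes were. Both counts lie near these shares. Only Ptbp2 and Nova2 were called in both lines, with opposite signs: -0.33 and 1.03 for Ptbp2, and 0.75 and -1.05 for Nova2.

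**Figure D4:**
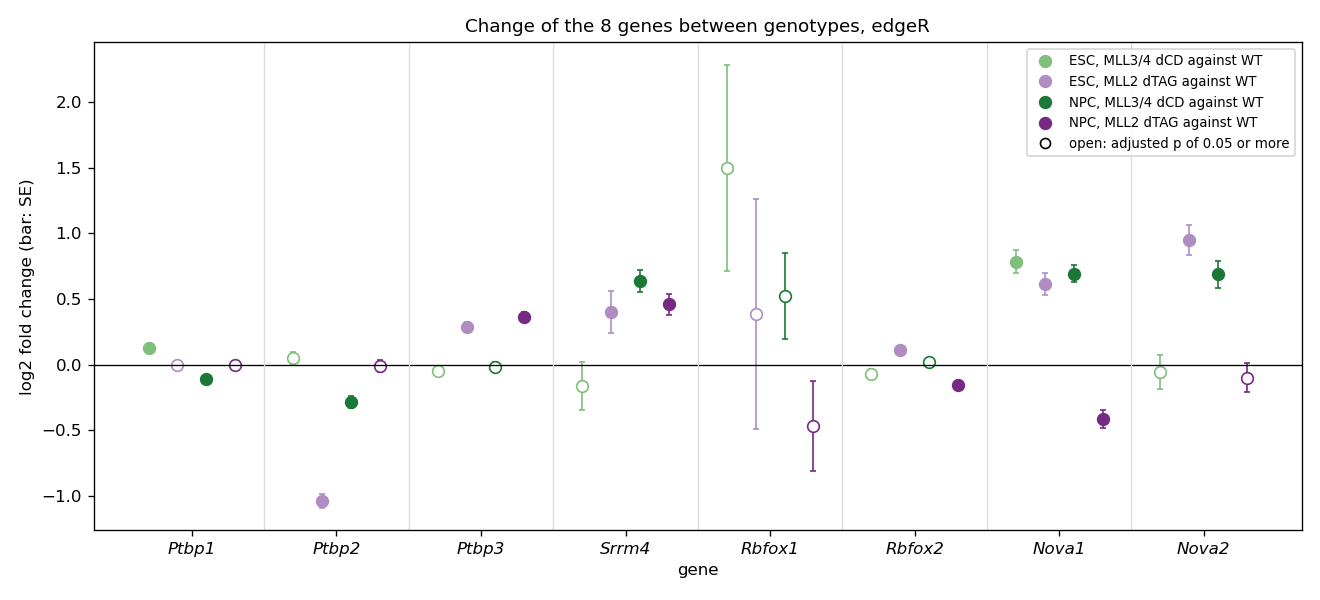
Log2 fold change against WT of the same stage (points, with SE bars) for MLL3/4 dCD and MLL2 dTAG in ESC and NPC, with called changes filled. Nova1 was higher in both lines in ESC and parted in NPC (0.69 and -0.41), and Ptbp2 was lower in ESC MLL2 dTAG (-1.04).

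Compared directly in ESC, MLL2 dTAG was higher than MLL3/4 dCD for Ptbp3 (0.34), Srrm4 (0.56), Rbfox2 (0.18) and Nova2 (1.01) and lower for Ptbp1 (-0.13) and Ptbp2 (-1.09), 6 of 8 called where 47.2% of all genes were, 23.4% higher and 23.7% lower. Nova1 lay lower without overlap (-0.17, edgeR adjusted p = 0.081) and was not called, except with upper quartile scaling (-0.22). In NPC, MLL2 dTAG was higher for the 3 PTB genes (Ptbp1 0.11, Ptbp2 0.27 and Ptbp3 0.38) and lower for Rbfox1 (-0.99), Rbfox2 (-0.18), Nova1 (-1.11) and Nova2 (-0.79), 7 of 8 called where 55.9% of all genes were, 31.6% higher and 24.3% lower. The Ptbp1 call there was lost with upper quartile scaling, library totals, no filter and the fit of the 2 groups alone (0.023 to 0.048). With the GC and length offsets the Ptbp2 and Ptbp3 differences in NPC were 0.55 and 0.64, and that of Ptbp3 in ESC was 0.61.

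Marker genes of other cell types also differed between these groups. Against WT in NPC, 26.7% of all genes were higher and 26.8% lower in MLL3/4 dCD, and 33.3% and 28.4% in MLL2 dTAG. In ESC these shares were 25.7% and 22.6% in MLL3/4 dCD and 28.7% and 28.2% in MLL2 dTAG. Some marker counts below lie near these shares. The neuronal sum was 438 to 472 CPM in NPC MLL3/4 dCD and 275 to 290 in NPC MLL2 dTAG, against 290 to 296 in NPC WT, with 6 of 9 markers higher and 1 lower in MLL3/4 dCD and 3 higher and 3 lower in MLL2 dTAG. The 5 neural progenitor markers summed to 302 to 337 CPM in NPC MLL3/4 dCD, 204 to 208 in NPC MLL2 dTAG and 148 to 150 in NPC WT. All 5 were higher in MLL3/4 dCD. In MLL2 dTAG 3 were higher (Nes at 156 CPM against 91.1 in WT), 1 was lower (Pax6 at 26.4 against 38.9) and 1 was not called. The 4 endoderm markers (Sox17, Gata4, Gata6 and Foxa2) summed to 492 to 506 CPM in NPC MLL2 dTAG, 201 to 210 in NPC WT and 175 to 182 in NPC MLL3/4 dCD, and 4 of 4 were higher in MLL2 dTAG. In ESC the neuronal sum was 401 to 416 CPM in MLL3/4 dCD and 429 to 445 in MLL2 dTAG, with 2 of 9 markers higher and 6 lower in MLL2 dTAG and Dcx at 0 there. The 4 mesenchymal markers summed to 319 to 322 CPM in NPC MLL2 dTAG, 391 to 405 in NPC WT and 456 to 508 in NPC MLL3/4 dCD. In NPC MLL2 dTAG 2 of them were higher (Pdgfra at 160 CPM against 62.8 in WT) and 2 lower (Col1a2 at 21.3 against 153), and in NPC MLL3/4 dCD 3 were higher. In ESC all 4 were higher in both mutant lines, with sums of 600 to 677 CPM in MLL3/4 dCD and 682 to 730 in MLL2 dTAG against 396 to 498 in WT. The sum of 5 glial markers in NPC was 36.3 to 38.7 CPM in WT, 17.3 to 18.7 in MLL3/4 dCD and 10.5 to 11.9 in MLL2 dTAG, nearly all of it Mbp. The sum of 5 muscle and heart markers in NPC was 5.69 to 5.82 CPM in MLL3/4 dCD, 1.66 to 1.77 in MLL2 dTAG and 1.04 to 1.14 in WT, with Actc1 at 524, 134 and 32 counts. Their part in the changes of the 8 genes was not tested.

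The genes whose profile over the 6 group means was most like each member were found among 11803 genes at 5 CPM or more, by the root mean square difference of centred log2 CPM. For Ptbp2 they were Baz2b (0.061) and Nsd2 (0.10); Baz2b was at 58.0 CPM in ESC WT, 27.8 in ESC MLL2 dTAG and 162 in NPC WT. For Srrm4 they were Boc (0.12) and Abat (0.16), and Boc went from 9.26 CPM in ESC WT to 58.4 in NPC WT and 91.1 in NPC MLL3/4 dCD. Ptbp1 was nearest to Tmem177 (0.031) and Hcfc1 (0.037), Ptbp3 to Hsp90b1 (0.034) and Srgap2 (0.040), and Rbfox2 to Mapkbp1 (0.022) and Kdm4a (0.038). Nova1 was nearest to Cpe (0.11) and Synpo (0.17) and Nova2 to Fndc10 (0.14) and Sulf2 (0.19). Rbfox1, under 1 CPM on average, was left out.

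Transcripts of a list of proteins that work with PTB were lower in ESC MLL2 dTAG, as was Ptbp2. Of these, 7 of 7 were called lower, where 28.2% of all genes were, with a median of -0.26. The list was chosen with earlier results known, so this count is a description. Raver2, a co-repressor that binds PTB proteins, was at 72.5, 76.4 and 77.5 CPM in ESC WT and 16.3, 16.2 and 14.7 in ESC MLL2 dTAG (-2.27, SE 0.060). Its relative Raver1 fell by 0.58 on the log2 scale, and Matr3, a nuclear matrix protein that binds PTBP1, by 0.44. Raver2 was lower in the other 3 genotype comparisons too, at -0.61 and -0.80 in MLL3/4 dCD as ESC and NPC and -1.73 in NPC MLL2 dTAG. In NPC MLL2 dTAG 2 partners were higher and 3 lower, where 33.3% and 28.4% of all genes were. In NPC MLL3/4 dCD 4 were lower (26.8% of all genes), and in ESC MLL3/4 dCD 2 were higher and 4 lower (25.7% and 22.6%). From ESC to NPC in WT 6 of 7 fell and Raver1 rose (0.43), where 40.4% of all genes were lower and 39.1% higher.

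Genes that act upstream of the members were read from a list of REST, its cofactors and the miR-124 hosts. REST, which represses Srrm4 and other neuronal genes, was at 419, 457 and 426 CPM in ESC WT and 146, 138 and 144 in NPC WT (-1.61, SE 0.039). Between genotypes in NPC, Rest was called higher in MLL2 dTAG (0.28, SE 0.039) and not called in MLL3/4 dCD (0.041). Srrm4 was higher in both lines, and a link to Rest was not tested. Mir124a-1hg and Mir124-2hg are hosts of miR-124, a neuronal microRNA known to repress Ptbp1. Mir124-2hg had 4 counts in ESC WT and 2775 in NPC WT, and its genotype differences in NPC against WT were not called. Mir124a-1hg was at 6.71 ± 0.916 CPM in ESC WT and was higher in ESC MLL3/4 dCD (0.86), ESC MLL2 dTAG (1.29) and NPC MLL3/4 dCD (0.93), while in NPC MLL2 dTAG it was not called (0.074). The REST phosphatase cofactor Ctdsp1 was higher in both lines in ESC (0.93 and 1.13), and Ctdsp1, Ctdsp2 and Ctdspl were all lower in NPC MLL3/4 dCD (-0.27, -0.63 and -0.56). The corepressor gene Rcor1 was higher in both lines in ESC (0.12 and 0.31), lower in NPC MLL3/4 dCD (-0.12) and not called in NPC MLL2 dTAG (0.065).

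**Figure D5:**
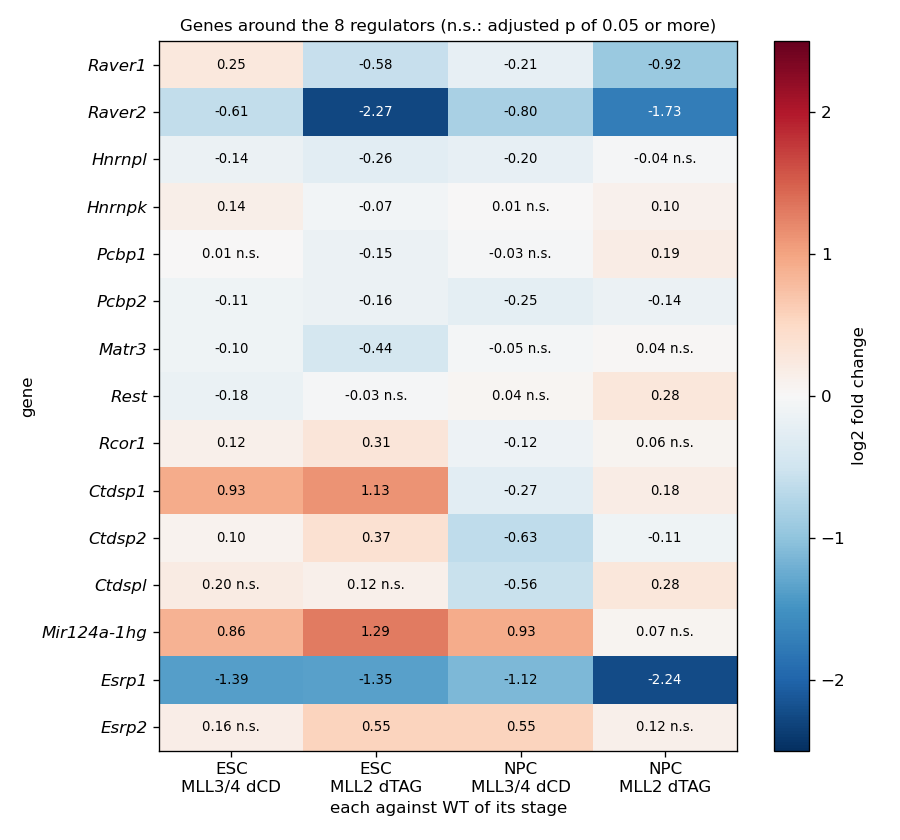
Log2 fold change against WT of the same stage (colour and printed value) for PTB partners, REST and miR-124 genes (Mir124-2hg left out for its few ESC counts) and the 2 ESRP genes, with n.s. where not called. Raver2 and Esrp1 were lower in all 4 comparisons.

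Other neural splicing factors, 19 in all and including the CELF, ELAVL, MBNL, KHDRBS and Quaking families, are set beside the shares of all genes called. Elavl3, Elavl4 and Rbfox3 are also among the neuronal markers above, so the 2 sets of counts share these genes. In ESC MLL2 dTAG 12 were lower and 4 higher (median -0.52), where 28.2% of all genes were lower and 28.7% higher. Celf2 had the lowest called value (-1.75) among those with a mean of 5 CPM or more over the 18 libraries. It was at 19.2, 25.6 and 22.9 CPM in WT and 5.93, 6.49 and 7.70 in MLL2 dTAG. Rbfox3, under that mean, had 115 counts in ESC WT and 15 in ESC MLL2 dTAG. In ESC MLL3/4 dCD 10 were lower and 4 higher (median -0.16), where 22.6% of all genes were lower and 25.7% higher. In NPC MLL3/4 dCD 12 were higher and 4 lower (median 0.37), led by Celf2 (1.31), where 26.7% of all genes were higher and 26.8% lower. In NPC MLL2 dTAG 8 were higher and 4 lower (median 0.015; 33.3% and 28.4% of all genes), from Celf2 at 0.87 to Mbnl3 at -1.84. The members and this list thus differed in ESC MLL2 dTAG, where 5 of 8 members were higher and 12 of 19 of these genes lower. Among the 5, the calls of Srrm4 and Rbfox2 were lost in some settings, upper quartile scaling among them. The difference between the members and this list was not tested. Celf3 rose most from ESC to NPC in WT (3.11).

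Esrp1, which drives epithelial splicing, was at 114, 126 and 119 CPM in ESC WT and 20.8, 22.6 and 20.8 in NPC WT. It was lower than WT in all 4 genotype comparisons, by -1.39 and -1.35 in ESC MLL3/4 dCD and MLL2 dTAG and by -1.12 and -2.24 in NPC. Esrp2 was called higher in ESC MLL2 dTAG and in NPC MLL3/4 dCD (0.55 in each). Components of the large assembly that RBFOX proteins join, 8 genes with Matr3 again among them, and 10 SR proteins, which activate exons broadly, had small changes. In the assembly 4 were higher and 2 lower in ESC MLL3/4 dCD, 3 and 3 in ESC MLL2 dTAG, 2 and 4 in NPC MLL3/4 dCD, and 5 and 1 in NPC MLL2 dTAG, with Hnrnpm in ESC MLL3/4 dCD the highest called, at 0.42. Of the SR proteins 5 were higher and 1 lower, 2 and 3, 1 and 4, and 6 and 0 in the same order, within -0.26 (Srsf4, ESC MLL2 dTAG) and 0.33 (Srsf2, NPC MLL2 dTAG). Of all genes, 25.7% were higher and 22.6% lower, 28.7% and 28.2%, 26.7% and 26.8%, and 33.3% and 28.4% in that order. Some counts of both lists lie near these shares.

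A further 9 genes whose exons are textbook targets of these factors were read at the level of the whole gene. In NPC MLL3/4 dCD 3 were higher and 5 lower (53.5% of all genes called), with Src at 0.26 and Dlg4, whose transcript decays when PTB proteins skip an exon, at -0.42. In ESC MLL2 dTAG, where Ptbp2 was low, 4 were higher and 2 lower (56.9% of all genes called), from Dab1 at 0.98 to Pkm at -0.33. In ESC MLL3/4 dCD 1 was higher and 3 lower, and in NPC MLL2 dTAG 3 were higher and 3 lower, where 48.3% and 61.7% of all genes were called. Apart from the 8 of 9 in NPC MLL3/4 dCD, these counts lie near the shares over all genes.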

How the data were processed

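Libraries of mRNA were made with a TruSeq Stranded mRNA kit, per the labels' protocols. The authors deposited raw counts per gene symbol, made with HTSeq per the submitters' processing notes; aligner, build and strand setting are not given in the sources used here. Columns were matched to samples by name; 6 columns under 3 repeated names were not used, and 18 of 36 samples were not analysed here. Counts were tested in R 4.3.3 with edgeR 4.0.16 (filterByExpr by group, TMM, 1 mean per group, 12 residual degrees of freedom, two-sided quasi-likelihood F tests, Benjamini-Hochberg over 20511 genes), and the fit was tested on simulated data. CPM used TMM-scaled totals. Positions and exon lengths came from GENCODE M21 (GRCm38). Alternatives were other scalings and filters, DESeq2 1.42.0, limma-voom (limma 3.58.1), halved counts (60.8% to 66.5% of counts from 1 to 10 were even), offsets for GC content and length, 2 groups alone, a replicate block and leaving out each library. The members and gene lists were chosen with earlier results of these data known. All 8 members are named; from other lists, every gene of lists of up to 7 and otherwise the highest and lowest called gene per comparison at 5 CPM or more. Likeness was computed for members with a mean of 1 CPM or more. Results of some list genes are not reported here.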

Additional observations from a re-analysis of the deposited data

Results flagged for a closer look

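The change between a genotype and WT differed between stages, by the edgeR test of the interaction (the change in NPC minus the change in ESC), for 4 of the 8 genes in each line, where 42.9% of all genes tested were called for MLL3/4 dCD and 49.0% for MLL2 dTAG. A count of 4 of 8 lies near these shares, so the values below describe single genes. In MLL3/4 dCD, Ptbp1 gave -0.24 (SE 0.044): it was higher than WT in ESC and lower in NPC. Ptbp2 gave -0.33 (SE 0.068), lower in NPC and not called in ESC. Srrm4 gave 0.80 (SE 0.20) and Nova2 0.75 (SE 0.17), both higher in NPC and not called in ESC.

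In MLL2 dTAG, Ptbp2 gave 1.03 (SE 0.069), from the low level in ESC to a level like WT in NPC. Rbfox2 gave -0.27 (SE 0.048) and Nova1 -1.03 (SE 0.11), both higher than WT in ESC and lower in NPC. Nova2 gave -1.05 (SE 0.16), higher in ESC and not called in NPC.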

How the results depend on the processing

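The number of the 8 genes called kept within 1.5 times of its value in every comparison and alternative except MLL3/4 dCD against WT in ESC, which had 2, 4 with offsets for GC content and length, and 2 to 4 when each library was left out in turn. Outside the leave-one-out fits, 903 of 965 values for single genes kept direction and side of the threshold, 13 lost a call and 17 gained it with the direction kept, and 32 turned sign, of which 3 gained a call and 1 lost it. In 3 cases a called change turned sign: Ptbp3 from ESC to NPC in MLL2 dTAG (-0.030 with upper quartile scaling, -0.36 with the offsets) and Rbfox2 in the same comparison (-0.12 with the offsets). The cause was not tested. The replicate block left the counts at 2, 6, 5 and 4 against WT, 7, 7 and 8 from ESC to NPC, 6 and 7 between lines and 4 and 4 for the interactions, and changed no call. Same-numbered libraries shared only a number: 0 of 45 pairs of deviations correlated over 0.1 (-0.028 to 0.032), and 2 of 18 libraries correlated best with their own number.

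The other sign changes were of values that were not called in the main analysis. With the offsets they were Nova2 in ESC MLL3/4 dCD (0.049), Ptbp1 in ESC (0.016) and NPC (0.029) MLL2 dTAG, Rbfox2 in NPC MLL3/4 dCD (-0.0098), Ptbp2 (0.24) and Nova2 (0.025) in NPC MLL2 dTAG, Nova1 between lines in ESC (0.11), and Ptbp3 from ESC to NPC in WT (-0.47) and MLL3/4 dCD (-0.39). Upper quartile scaling turned Ptbp3 in those last comparisons (-0.070 and -0.042), and for WT so did a stricter filter (-0.012) and halved counts (-0.00046). Ptbp1 in ESC MLL2 dTAG was 0.0069 with DESeq2 size factors and with DESeq2, 2.97e-05 with library totals and 0.053 without a filter, where Ptbp3 in NPC MLL3/4 dCD was 0.0040. For the MLL2 dTAG interaction, Ptbp1 was -0.018 with DESeq2 size factors and with DESeq2, -0.037 with upper quartile scaling, -0.088 with library totals, -0.097 without a filter, -0.0023 with limma-voom and -0.0021 with only its groups fitted. Ptbp3 (-0.0096 and -0.019) and Srrm4 (-0.027 and -0.034) turned there with library totals and without a filter.

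Leaving out each library gave sign changes in these ranges. For MLL3/4 dCD in ESC, Ptbp2 ran from -0.029 to 0.14, Nova2 from -0.17 to 0.047 and the Ptbp2 to Ptbp1 ratio from -0.17 to 0.014. For MLL2 dTAG in ESC, Ptbp1 ran from -0.018 to 0.015 and Rbfox1 from -0.27 to 1.51. For MLL2 dTAG in NPC, Ptbp1 ran from -0.020 to 0.022, Ptbp2 from -0.035 to 0.013, Nova2 from -0.17 to 0.0010 and the Ptbp2 to Ptbp1 ratio from -0.014 to 0.0027. Ptbp3 from ESC to NPC in WT ran from -0.0083 to 0.044, and Rbfox1 between lines in ESC from -1.50 to 0.27. For the interactions, Rbfox1 (-2.10 to 0.41) and Nova1 (-0.17 to 0.0063) in MLL3/4 dCD and Ptbp1 (-0.020 to 0.027) and Srrm4 (-0.081 to 0.13) in MLL2 dTAG changed sign.

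The offsets covered 96.0% of tested genes and moved the median of all genes by -0.12 from ESC to NPC in MLL2 dTAG and by 0.14 between lines in ESC, and upper quartile scaling moved the former by -0.11. Depth limits Rbfox1 in ESC (6 to 17 counts a group) and Srrm4 in ESC (109 to 212).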
